A study of Mus musculus with 8 samples.

Results

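The genes described here are 42 genes of epithelial junctions and apical membranes, among 19356 genes measured in mouse urogenital ridges, of which the caudal area was taken. They were chosen by known function, but with earlier results of these data known, so comparisons with all genes below are descriptions only. The 5 groups are 10 genes of keratins and adhesion, 14 of claudins and the tight junction, 4 of membrane proteases and their inhibitors, 8 of the apical membrane, and 6 of epithelial transcription and splicing factors. A probe set was used if it carried exactly 1 gene symbol, and each gene was read from its probe set with the highest mean log2 signal over the 8 arrays. All 42 genes were measured, and Cldn10 was the 1 gene among them with more than 1 probe set. Levels of different genes are not set against each other here, since their probes differ in brightness. Exceptions are sums of linear signal over a list, in which the brightest probe sets weigh most, and percentiles of mean signal.

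The arrays held RNA from 4 Sox11 knockout (Sox11-/-) and 4 wild type replicates, all dissected at E10.75, counted in days of embryonic life, from untreated mice of mixed background. The sources used here do not give the making of the Sox11 allele, nor the number of embryos behind a replicate. The p-values set the difference between genotypes against the spread between these RNA samples within a genotype. Sox11 itself had a log2 signal of 9.10 ± 0.13 (SD, n = 4) in knockout ridges and 11.79 ± 0.06 (SD, n = 4) in wild type ridges, and no array of 1 genotype overlapped the other. The position of its probes relative to the deletion is likewise not given.

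Epithelial cells of a duct hold together through adherens junctions and desmosomes, and close the space between cells with tight junctions built from claudins, occludin and the scaffold proteins beneath them. The junctions part the membrane into an apical face towards the lumen and a basolateral face towards the tissue. In the caudal urogenital ridge the nephric duct is such an epithelium, and at this stage the ureteric bud grows out of it into mesenchyme; cloacal endoderm, coelomic epithelium and surface ectoderm are other epithelia that a dissected piece may hold. A whole piece of tissue was measured, so fewer cells of a type and less RNA per cell cannot be told apart.

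Of the 42 genes, 3 rose in the knockout (Cldn8, Dpp4 and Spint1), 1 fell (Prom1) and 38 did not pass the threshold, an adjusted p under 0.05 by limma over all genes. Over all 19356 genes 70 were called higher in the knockout (0.362%) and 209 lower (1.08%). The change, a difference of log2 signal taken as knockout minus wild type, was above 0 for 32 of the 42 genes and below 0 for 10, with a median of 0.16, against a median of -0.0005 and 49.9% above 0 over all genes. Every knockout array lay above every wild type array for 8 of the 42 genes (Cldn8, Tjp3, Spint1, Prss8, Dpp4, Calb1, Ap1m2 and Elf3), against 4.04% of all genes. The reverse order, with all knockout arrays below all wild type arrays, was seen for 1 gene, Prom1, against 6.47% of all genes. At an unadjusted limma p under 0.05 there were 13 of the 42 genes above 0 and 2 below, beside 1412 and 1815 of all genes.

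The median rests in part on wild type replicate 2. Without that array it was 0.09, with 27 of 42 genes above 0, and the calls of Cldn8, Dpp4 and Prom1 held while that of Spint1 was lost (limma adjusted p = 0.0806). Without wild type replicate 3 the median was 0.21, with 31 of 42 genes above 0. In the plot of the 42 changes with their intervals each of the 5 groups holds genes on both sides of 0, and most intervals cross 0.

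**Figure D1:**
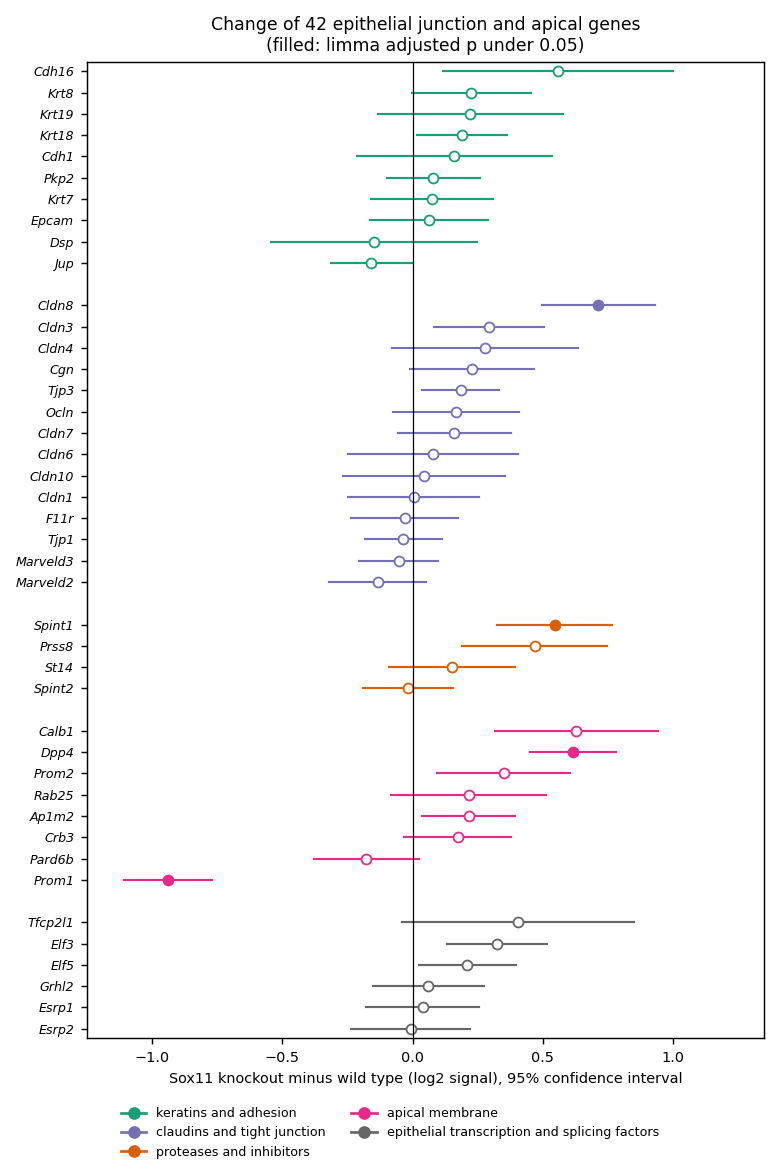
Change in log2 signal, Sox11 knockout minus wild type (x axis), for each of the 42 genes (rows, by group and by size of change), with the 95% confidence interval from limma; 4 arrays per genotype. Filled points passed an adjusted p under 0.05: Cldn8 (0.71), Dpp4 (0.62) and Spint1 (0.54) to the right of 0 and Prom1 (-0.94) to the left.

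Among the genes of keratins and adhesion none passed the threshold by limma over all genes, 8 of 10 had a change above 0 and the median was 0.12; at an unadjusted limma p under 0.05 there were 2 above 0 and 1 below. Cdh1 encodes E-cadherin, the main adhesion molecule between epithelial cells. Its log2 signal was 8.37, 8.74, 8.70 and 8.63 in knockout ridges, against 8.69, 7.87, 8.63 and 8.60 in wild type ridges. Wild type replicate 2 lay far below the other arrays, which overlapped between genotypes. The change was 0.16 with an interval of -0.21 to 0.53 (limma adjusted p = 0.663), and it was -0.03 without that array.

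Epcam, a surface glycoprotein found on nearly all simple epithelia, had 8.93, 8.93, 9.18 and 9.03 in knockout ridges, against 9.15, 8.69, 8.95 and 9.04 in wild type ridges. The arrays of both genotypes overlapped, with a change of 0.06 and an interval of -0.17 to 0.29. These broad markers of epithelium therefore showed no detectable difference with 4 arrays a side, and an interval of this width does not show that they were alike.

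Cdh16 encodes the kidney cadherin, a membrane protein of the nephric duct and its derivatives. Its log2 signal was 9.22, 8.40, 9.33 and 9.42 in knockout ridges, against 8.48, 8.47, 8.82 and 8.38 in wild type ridges. Knockout replicates 1, 3 and 4 lay above every wild type array and replicate 2 lay among them. The change of 0.56 (SE 0.20) had a limma adjusted p of 0.202, and without knockout replicate 2 it was 0.79 with a limma adjusted p of 0.0117. The other 19 alternatives left it uncalled, at up to 0.422 without knockout replicate 4.

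Keratins 8, 18, 7 and 19 form the intermediate filaments of simple epithelia. Krt18 had 10.28, 10.37, 10.40 and 10.29 in knockout ridges, against 10.17, 10.10, 10.32 and 9.998 in wild type ridges, so that wild type replicate 3 alone reached into the knockout range. Krt8, the partner of Krt18 in the filament, had 9.95, 10.43, 10.18 and 10.11 in knockout ridges and 10.06, 9.87, 10.02 and 9.82 in wild type ridges. Neither change passed the threshold, with 0.19 for Krt18 (limma adjusted p = 0.252) and 0.23 for Krt8 (limma adjusted p = 0.308). Krt19 had a change of 0.22 and Krt7 one of 0.07.

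The desmosome anchors keratin filaments to the membrane through desmoplakin (Dsp), plakoglobin (Jup) and plakophilin (Pkp2). Jup had 9.83, 9.73, 9.94 and 9.83 in knockout ridges, against 10.01, 9.97, 10.08 and 9.89 in wild type ridges. The groups met only at the edge, where knockout replicate 3 lay above wild type replicate 4, and the change of -0.16 had a limma adjusted p of 0.291. Dsp had a change of -0.15 and Pkp2 one of 0.08. Knockout replicate 2 was the highest of the knockout arrays for both Dsp (7.85, the others 6.97 to 7.15) and Krt19 (7.46, the others 6.70 to 6.96), and the lowest for Cdh16. Without it the changes were -0.35 for Dsp and 0.07 for Krt19.

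Claudins are membrane proteins that span the membrane and seal or open the tight junction to ions. In the group of claudins and the tight junction 1 of 14 genes passed the threshold, 10 changes lay above 0 and the median was 0.12. Cldn8 (probe set 10440647), known as a barrier claudin of the distal nephron and collecting duct, had 9.62, 9.89, 9.86 and 9.62 in knockout ridges, against 9.19, 8.82, 9.08 and 9.05 in wild type ridges. All knockout arrays lay above all wild type arrays, and the gap between the groups was wider than the spread within either. Cldn8 rose by 0.71 (SE 0.10, interval 0.50 to 0.93), which is 1.64-fold, with a limma adjusted p of 0.00648; 26 of the 19356 genes had a larger positive change.

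Cldn3, a sealing claudin of simple epithelia, had 7.53, 7.34, 7.48 and 7.53 in knockout ridges, against 7.41, 7.03, 7.25 and 7.02 in wild type ridges. Wild type replicate 1 alone reached above the lowest knockout array, and the change of 0.29 (SE 0.10) had a limma adjusted p of 0.165. Cldn4, which is often found with Cldn3 and Cldn8, had 9.43, 9.46, 9.78 and 9.62 in knockout ridges and 9.47, 8.75, 9.37 and 9.58 in wild type ridges. Wild type replicate 2 was again low there, and the change of 0.28 was 0.10 without it.

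Cldn7 had a change of 0.16, Cldn6, a claudin of embryonic epithelia, one of 0.08, the pore-forming Cldn10 one of 0.04 and Cldn1 one of 0.00. The other probe set of Cldn10 gave 0.07. The 7 claudins of the list all had a change above 0, with a median of 0.16, though for Cldn1 and Cldn10 the sign turned with array weights, and for Cldn1, Cldn6 and Cldn10 it turned when single arrays were left out. None of the other 14 claudins passed the threshold by limma (3 above 0 and 2 below at an unadjusted p under 0.05). The extremes among them were Cldn11 (0.60, limma adjusted p = 0.108) and Cldn9 (-0.49, limma adjusted p = 0.131). Over all 21 claudins 17 changes lay above 0 and 4 below. Of the other 14 claudins 6 had a mean signal under the 25th percentile over all genes.

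**Figure D2:**
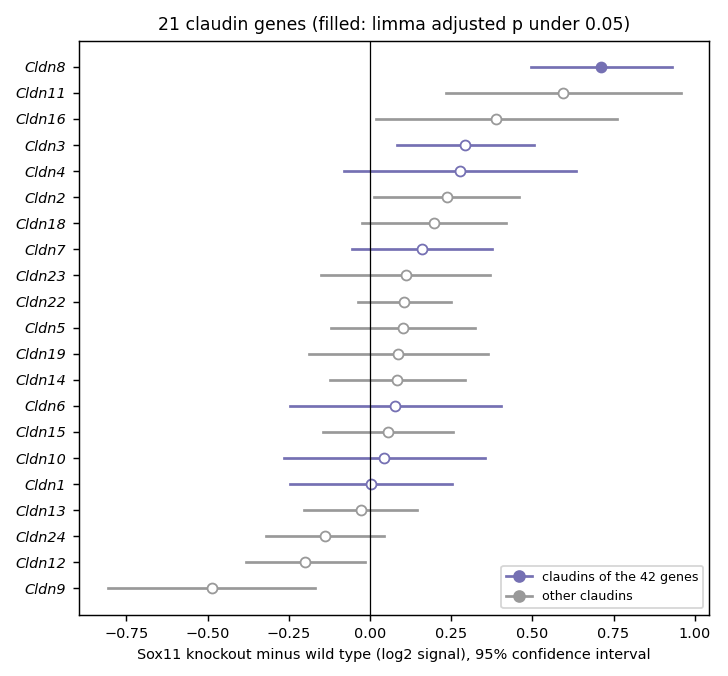
Change in log2 signal, Sox11 knockout minus wild type (x axis), with 95% confidence interval for the 21 measured claudin genes (rows), 4 arrays per genotype; the filled point passed a limma adjusted p under 0.05. Cldn8 (0.71) is the 1 filled point, Cldn11 (0.60) lies next to it with a wider interval, and Cldn9 (-0.49) lies at the other end.

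The remaining genes of the tight junction did not pass the threshold. Tjp3, the scaffold protein ZO-3 beneath the claudins, had 7.23, 7.21, 7.16 and 7.11 in knockout ridges, against 7.06, 6.93, 6.91 and 7.07 in wild type ridges. Its groups did not overlap, but the change was small at 0.18 (SE 0.07, limma adjusted p = 0.207). Cgn, the cytoplasmic linker cingulin, had a change of 0.23 and was highest in knockout replicate 4 (7.75, the other knockout arrays 7.27 to 7.37). Tjp1, the scaffold ZO-1, which many cell types also use outside epithelia, had a change of -0.04 with an interval of -0.18 to 0.11. Occludin (Ocln) had 0.17, tricellulin (Marveld2), which sits where 3 cells meet, -0.13, its relative Marveld3 -0.05, and the adhesion molecule JAM-A (F11r) -0.03; the sign of F11r turned with either rescaling of the arrays.

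Matriptase (St14) and prostasin (Prss8) are membrane-bound serine proteases of epithelia, and Spint1 and Spint2 are their Kunitz-type inhibitors on the same cells. In this group of 4 genes 1 passed the threshold, 3 changes lay above 0 and the median was 0.31. Spint1 (probe set 10474936) had 8.47, 8.38, 8.50 and 8.39 in knockout ridges, against 8.10, 7.80, 8.02 and 7.64 in wild type ridges. The knockout arrays lay close together and above all wild type arrays, which were spread more widely. Spint1 rose by 0.54 (SE 0.10, interval 0.33 to 0.76), which is 1.46-fold, with a limma adjusted p of 0.0273. The call did not hold without any 1 of the knockout arrays (limma adjusted p from 0.0543 to 0.0881), without wild type replicate 2, or with a covariate for Y-linked signal (limma adjusted p = 0.0521).

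Prss8 had 8.56, 8.40, 8.67 and 8.64 in knockout ridges, against 8.27, 8.16, 8.28 and 7.70 in wild type ridges. The groups did not overlap, wild type replicate 4 was the lowest array, and the change of 0.47 (SE 0.12) had a limma adjusted p of 0.0995. Without wild type replicate 4 it was 0.34. St14 had a change of 0.15, with wild type replicate 2 at 8.11 and the other 7 arrays between 8.53 and 8.75; without that array it was 0.037. Spint2 had -0.02, with knockout arrays from 8.80 to 8.83 and wild type arrays from 8.61 to 8.94.

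Among the 8 genes of the apical membrane 1 rose and 1 fell, 6 changes lay above 0 and the median was 0.22. Dpp4 (probe set 10483046) encodes dipeptidyl peptidase 4, an enzyme on the apical surface of kidney and gut epithelia that cleaves dipeptides from the ends of peptides. Its log2 signal was 7.89, 7.94, 8.10 and 7.95 in knockout ridges, against 7.39, 7.20, 7.42 and 7.40 in wild type ridges. All knockout arrays lay above all wild type arrays, and wild type replicate 2 was below the other 3 of its genotype. Dpp4 rose by 0.62 (SE 0.08, interval 0.45 to 0.78), which is 1.53-fold, with a limma adjusted p of 0.00319, and the call held under every alternative that was run.

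Prom1 (probe set 10529824) encodes prominin-1, a cholesterol-binding glycoprotein of plasma membrane protrusions on the apical face of epithelial and neural progenitor cells. Its log2 signal was 8.50, 8.54, 8.40 and 8.37 in knockout ridges, against 9.42, 9.40, 9.51 and 9.24 in wild type ridges. The lowest wild type array lay above the highest knockout array by more than the range within either genotype. Prom1 fell by 0.94 on the log2 scale (SE 0.08, interval -1.11 to -0.77), or 1.92-fold, and its limma adjusted p was 3.98e-04. It had rank 5 of the 19356 genes by p and the call held under every alternative that was run.

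Prom2, the relative of Prom1 on protrusions of epithelial cells, had 6.58, 6.84, 6.65 and 6.47 in knockout ridges, against 6.42, 6.07, 6.13 and 6.52 in wild type ridges. The highest wild type array lay just above the lowest knockout array, and the change of 0.35 (SE 0.12) had a limma adjusted p of 0.169. The changes of Prom1 and Prom2 thus had opposite signs, and the difference between them was not tested.

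Calb1 (probe set 10503416) encodes calbindin, a calcium-binding protein of the cytosol that is listed with the apical genes and marks the nephric duct and ureteric bud. It had 11.89, 11.55, 11.76 and 11.74 in knockout ridges, against 11.21, 10.76, 11.49 and 10.97 in wild type ridges. The groups did not overlap, with wild type replicate 3 just below the lowest knockout array. The change was 0.63 (SE 0.14), with a limma adjusted p of 0.0624. It stayed uncalled under 17 of 20 alternatives, over all of which the limma adjusted p ran from 0.0220 (without wild type replicate 3) to 0.184 (without moderation).

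Ap1m2, the medium subunit of the AP-1B adaptor that sorts proteins to the basolateral membrane, had 7.86, 7.94, 8.04 and 7.92 in knockout ridges, against 7.85, 7.59, 7.84 and 7.63 in wild type ridges. The groups came close without overlapping, and the change of 0.22 (SE 0.08) had a limma adjusted p of 0.218. Rab25, a small GTPase of apical recycling, had 0.22, and Crb3, the Crumbs protein that sets up the apical domain, 0.17. Pard6b, a partner of atypical protein kinase C in the polarity complex, had -0.18. For Rab25 wild type replicate 2 lay at 6.95, below the other 7 arrays (7.25 to 7.64), and without it the change was 0.085.

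The epithelial transcription and splicing factors held no gene past the threshold by limma over all genes. At an unadjusted limma p under 0.05 there were 2 of 6, both above 0 (Elf3 and Elf5), and 5 of the 6 changes lay above 0, with a median of 0.14. Elf3, an ETS factor of epithelial differentiation, had 7.02, 6.61, 6.74 and 6.81 in knockout ridges, against 6.48, 6.44, 6.52 and 6.45 in wild type ridges. The wild type arrays lay close together below all knockout arrays, and the change of 0.33 (SE 0.09) had a limma adjusted p of 0.0991. Elf5, a related ETS factor, had a change of 0.21 (limma adjusted p = 0.245).

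Tfcp2l1 is a transcription factor of the ureteric bud and collecting duct. It had 9.34, 8.66, 9.56 and 9.58 in knockout ridges, against 8.84, 8.75, 9.27 and 8.64 in wild type ridges. As for Cdh16, knockout replicate 2 was low and wild type replicate 3 was the highest of its genotype, and the change of 0.41 (SE 0.20) had a limma adjusted p of 0.341. Without knockout replicate 2 it was 0.61 (limma adjusted p = 0.0790). Grhl2, an activator of junction genes such as Cdh1, had 0.06 with an interval of -0.15 to 0.27. The splicing regulators Esrp1 and Esrp2, which set epithelial splice forms, had 0.04 (interval -0.18 to 0.26) and -0.01 (interval -0.23 to 0.22).

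**Figure D3:**
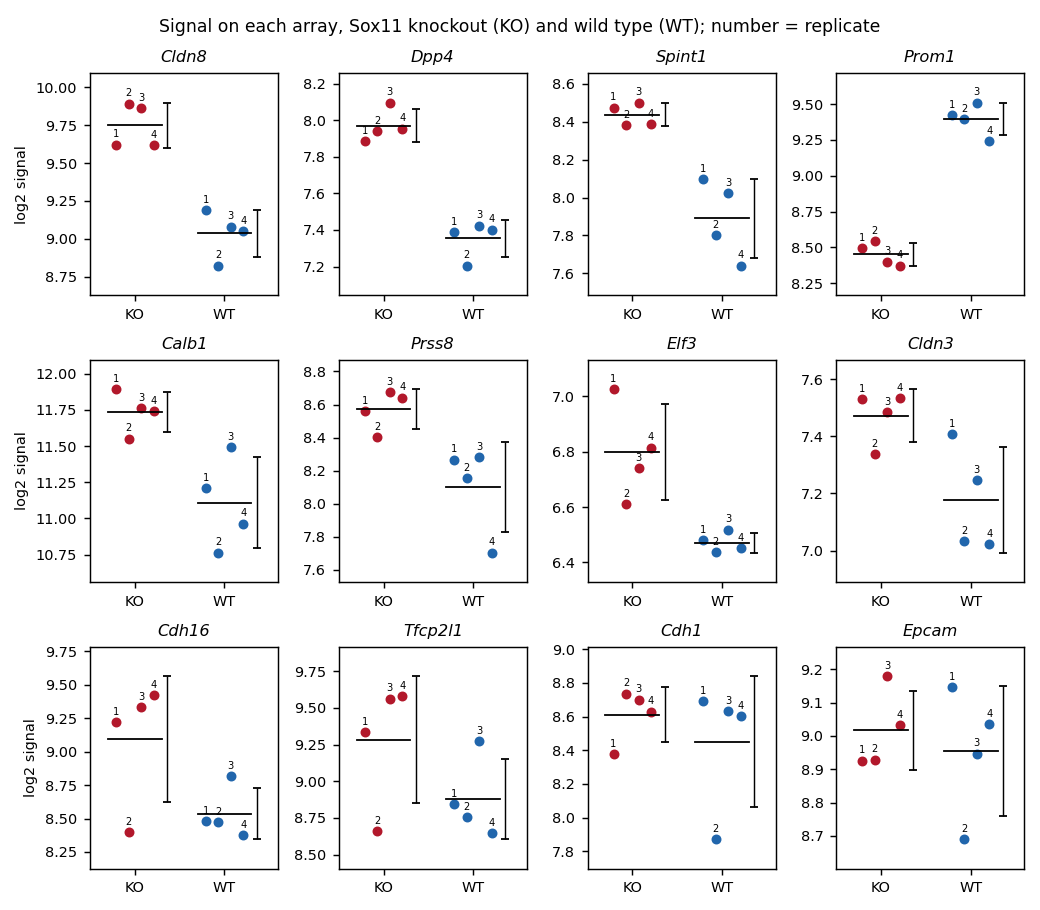
Log2 signal on each array for 12 of the 42 genes, Sox11 knockout (KO, red) and wild type (WT, blue), with the replicate number above each point; horizontal lines are means and bars SD (n = 4 each). Each panel has its own y axis, which does not start at 0. Cldn8, Dpp4, Spint1, Calb1, Prss8 and Elf3 show knockout arrays above all wild type arrays, Prom1 shows them below, knockout replicate 2 stands low for Cdh16 and Tfcp2l1, and wild type replicate 2 stands low for Cdh1.

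The level of the 42 genes as a whole differed between arrays. Taking for each gene its deviation from its own mean over the 8 arrays, the median deviation over the 42 genes was 0.05 to 0.07 in the 4 knockout arrays. In wild type replicates 1 and 3 it was 0.02 each, in replicate 2 it was -0.23 and in replicate 4 it was -0.11. Wild type replicate 2 was the lowest of its genotype for 20 of the 42 genes, which is 47.6%, against 23.9% of all genes, and replicate 4 for 17, which is 40.5%, against 29.3% of all genes. Without the 4 called genes the medians ran from 0.04 to 0.07 in the knockout arrays and were 0.03, -0.22, 0.04 and -0.09 in the wild type arrays, so replicates 1 and 3 lay within or near the knockout range. Wild type replicate 3 was the highest of its genotype for 20 of the 42 genes (47.6%, against 23.4% of all genes). Knockout replicate 2 was the highest of its genotype for 17 (40.5%, against 27.7%) and the lowest for 14 (33.3%, against 28.3%). What sets these arrays apart was not tested.

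**Figure D4:**
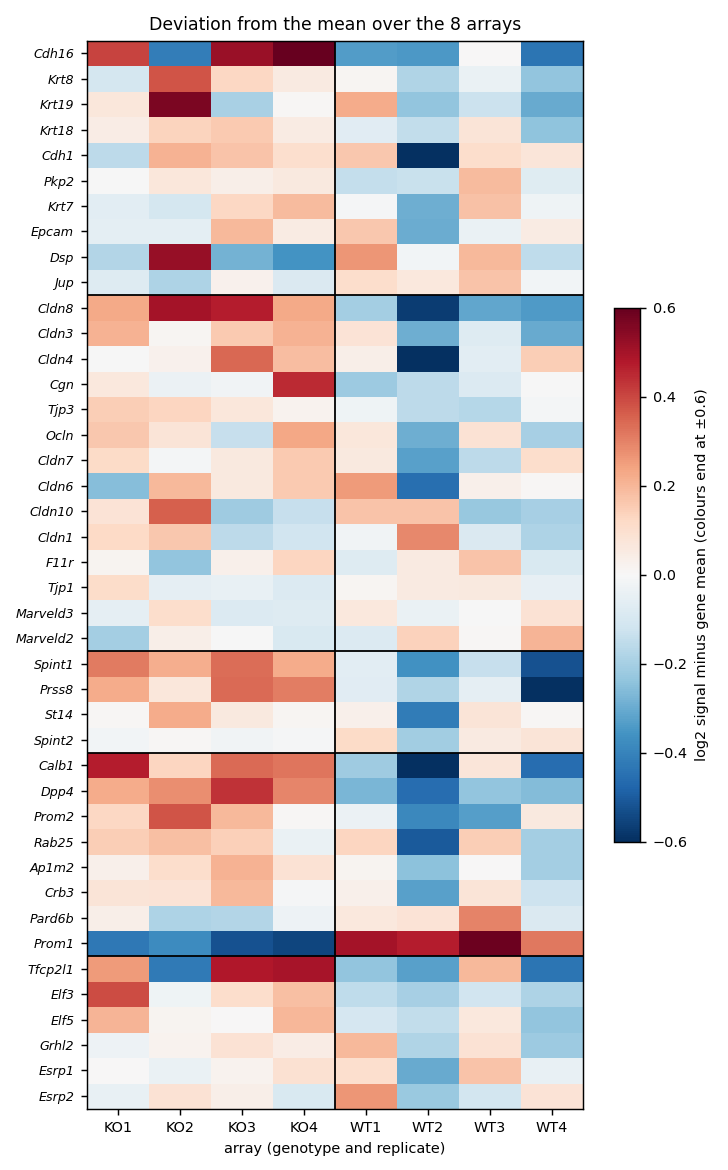
Log2 signal minus the gene's mean over the 8 arrays (colour, red above and blue below, ending at 0.6 either side) for the 42 genes (rows, by group and by size of change) on each array (columns, knockout left of the vertical line, wild type right of it). Prom1 is the row with blue knockout and red wild type cells, and wild type replicate 2 holds the lowest wild type value for 20 of the 42 genes.

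A mean of the broad epithelial genes Cdh1, Epcam, Esrp1 and Grhl2 on each array was used as a covariate, an alternative chosen after seeing the data. With it Cldn8, Dpp4 and Prom1 kept their calls, and Spint1 did not (limma adjusted p = 0.0550). These covariate genes are themselves among the 42 and had small changes (0.16, 0.06, 0.04 and 0.06). Kept calls therefore say nothing on the amount of epithelium, which was not tested. Markers of other cells were read beside these genes. Of 9 neuronal genes 8 had a change below 0, with a median of -0.30 and a summed linear signal of 3031 to 3678 in knockout ridges against 3034 to 4531 in wild type ridges. At an unadjusted limma p under 0.05 there were 3 neuronal genes, all below 0. Dcx, a microtubule protein of young neurons, fell by 0.93 (limma adjusted p = 0.0384), a call that was lost under 12 of 20 alternatives. Among them were the removal of any 1 array other than knockout replicate 3 (limma adjusted p from 0.0543 to 0.113). With all arrays the call of Dcx was lost under both rescalings, without moderation (0.155) and with either covariate. Of 11 erythroid genes 10 lay below 0, with a median of -0.22 and sums of 16742 to 22422 in knockout ridges against 13985 to 23357 in wild type ridges, and none passed by limma (5 below 0 at an unadjusted p under 0.05). Of 10 muscle genes 8 lay above 0, with a median of 0.17 and sums of 3634 to 4928 in knockout ridges against 3029 to 3829 in wild type ridges, and none passed by limma (4 above 0 at an unadjusted p under 0.05). Under the 25th percentile of mean signal over all genes lay 1 of the erythroid and 2 of the muscle genes. The part of these other cells in the changes of the 42 genes was not tested.

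Markers of the epithelia that a caudal ridge can hold were read in the same way. Of 20 genes of the nephric duct and ureteric bud 12 lay above 0, with a median of 0.05 and a summed linear signal of 13372 to 14813 in knockout ridges against 12801 to 14470 in wild type ridges, and with 1 of them under the 25th percentile of mean signal over all genes. At an unadjusted limma p under 0.05 there were 5 above 0 and 3 below. Calb1, Cdh16 and Tfcp2l1, also genes of the duct or bud, were counted among the 42 genes and not in that list. Their changes were 0.63, 0.56 and 0.41, and none of them passed the threshold. In that list Ret, the receptor for GDNF on duct cells, rose by 0.41 (limma adjusted p = 0.0220), and Etv5, a transcription factor downstream of it, fell by 0.40 (limma adjusted p = 0.0368). The call of Ret was lost without knockout replicates 1, 2 or 3 or wild type replicates 2 or 3 (limma adjusted p from 0.0517 to 0.0764), and without moderation (0.0692). That of Etv5 was lost without any 1 array other than wild type replicate 1 (limma adjusted p from 0.0621 to 0.101). With all arrays the call of Etv5 was also lost under both rescalings, with the mean of its probe sets, without moderation, with the replicate block and with either covariate, so under 14 of 20 alternatives in all. None of 12 genes of gut and cloacal endoderm passed (median 0.02; 0 at an unadjusted limma p under 0.05), with sums of 2931 to 3362 in knockout ridges and 2736 to 3312 in wild type ridges. None of 10 genes of surface ectoderm passed by limma (median 0.08; 2 above 0 at an unadjusted p under 0.05), with sums of 1120 to 1243 in knockout ridges above sums of 1053 to 1105 in wild type ridges. None of 10 genes of the coelomic epithelium passed by limma (median -0.06; 2 above 0 at an unadjusted p under 0.05), with sums of 10040 to 12040 in knockout ridges and 10710 to 13070 in wild type ridges. None of 14 genes of mesenchyme passed by limma (median 0.03; 1 above 0 and 2 below at an unadjusted p under 0.05), nor did any of 10 endothelial genes (median 0.04; 0 at an unadjusted p under 0.05). Under the 25th percentile of mean signal over all genes lay 4 of the endoderm, 1 of the surface ectoderm and 2 of the coelomic genes. The part of the listed tissues in the changes of the 42 genes was likewise not tested.

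**Figure D5:**
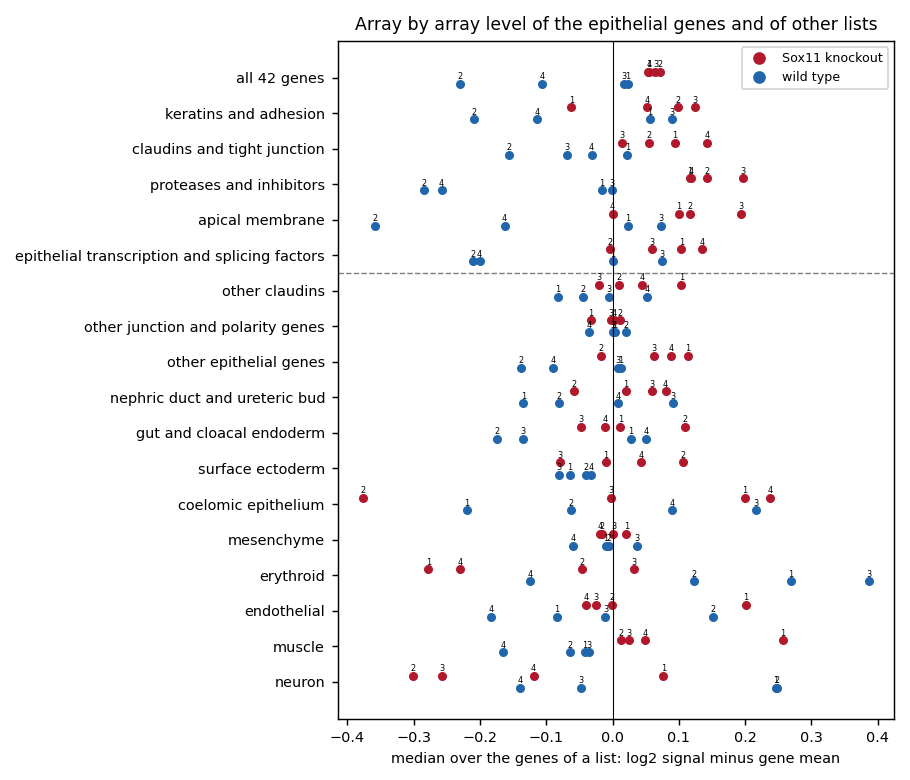
For each list of genes (rows), the median over its genes of log2 signal minus the gene's mean (x axis) on each array; red points are Sox11 knockout arrays and blue points wild type arrays, with the replicate number above each. Rows above the dashed line are the 42 genes and their 5 groups, and rows below it are related lists and markers of other cells. For all 42 genes the knockout arrays lie between 0.05 and 0.07 and wild type replicate 2 lies at -0.23.

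Junction and epithelial genes outside the 42 were set beside them. Of 36 other genes of junctions and polarity 35 were measured, and 2 fell while none rose, with a median change of -0.003 (by limma over all genes; at an unadjusted p under 0.05 there were 9 above 0 and 7 below). Llgl1, a polarity protein of the basolateral side, had 9.32, 9.28, 9.35 and 9.14 in knockout ridges, against 9.67, 9.83, 9.76 and 9.63 in wild type ridges. Cxadr, the coxsackievirus and adenovirus receptor of the tight junction, had 7.77, 7.81, 7.84 and 7.83 in knockout ridges, against 8.34, 8.10, 8.28 and 8.19 in wild type ridges. The groups did not overlap for either gene; Llgl1 fell by 0.45 (limma adjusted p = 0.0174) and Cxadr by 0.42 (limma adjusted p = 0.0179). The call of Llgl1 was lost without knockout replicate 4 or wild type replicate 2, and that of Cxadr without knockout replicates 1 or 4 or wild type replicate 3 (limma adjusted p from 0.0516 to 0.0657). Without moderation both calls were lost (0.0699 for Llgl1 and 0.0637 for Cxadr), and with the replicate block that of Cxadr was (0.0617).

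Of 21 other epithelial genes 20 were measured, 1 rose and none fell, 15 lay above 0 and the median was 0.09 (at an unadjusted limma p under 0.05 there were 6 above 0 and 3 below). Erbb3, a receptor for neuregulins that neural crest cells also carry, had 9.10, 9.20, 9.10 and 9.02 in knockout ridges, against 8.76, 8.87, 8.75 and 8.63 in wild type ridges. The groups did not overlap, and Erbb3 rose by 0.36 (limma adjusted p = 0.0417), a call that was lost under 12 of 20 alternatives, among them the removal of any 1 array (limma adjusted p from 0.0569 to 0.113). Over the 3 related lists together, which hold 68 measured genes, the median was 0.06. Of the other epithelial genes 3 had a mean signal under the 25th percentile over all genes, and of the other junction and polarity genes 1.

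Promoter windows of RefSeq on GRCm38.p6, from 250 bases before the start of a gene to 50 bases after it, were read for 30 of the 42 genes, in 38 windows. The other 12 genes are Cdh1, Cdh16, Krt19, Pkp2, Cldn8, Marveld3, St14, Prss8, Calb1, Grhl2, Esrp1 and Esrp2. The windows before the start of the called genes are shown because these genes carry the changes above, with matches to the searched motifs in capitals. The window of Dpp4 is chr2:62412232-62412481, minus strand, that of Spint1 is chr2:119237110-119237359, plus strand, and Prom1 has a window at chr5:44101737-44101986, minus strand and another at chr5:44094769-44095018, minus strand.
Dpp4: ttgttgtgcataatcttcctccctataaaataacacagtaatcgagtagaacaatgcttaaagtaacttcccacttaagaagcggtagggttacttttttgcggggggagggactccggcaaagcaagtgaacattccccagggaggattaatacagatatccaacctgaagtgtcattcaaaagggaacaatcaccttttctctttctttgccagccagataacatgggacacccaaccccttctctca
Spint1: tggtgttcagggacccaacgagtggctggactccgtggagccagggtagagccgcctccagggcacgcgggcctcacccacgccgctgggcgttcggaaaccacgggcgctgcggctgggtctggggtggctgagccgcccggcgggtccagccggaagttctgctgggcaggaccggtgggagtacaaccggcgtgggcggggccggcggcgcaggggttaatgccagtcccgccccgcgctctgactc
Prom1, upstream start: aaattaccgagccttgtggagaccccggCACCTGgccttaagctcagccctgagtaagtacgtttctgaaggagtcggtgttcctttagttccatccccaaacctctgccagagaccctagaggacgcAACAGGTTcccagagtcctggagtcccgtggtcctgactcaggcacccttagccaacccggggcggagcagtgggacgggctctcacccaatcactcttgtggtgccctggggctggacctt
Prom1, downstream start: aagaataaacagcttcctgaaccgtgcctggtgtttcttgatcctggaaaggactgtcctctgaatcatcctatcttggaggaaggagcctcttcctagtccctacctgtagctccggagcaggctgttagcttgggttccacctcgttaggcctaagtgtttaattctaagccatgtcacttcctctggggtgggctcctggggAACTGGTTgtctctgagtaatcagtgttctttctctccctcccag

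The motifs searched, on both strands, were CACCTG (the E-box that Snai and Zeb repressors of epithelial genes bind), AACCNGTT (Grhl factors), ACAAAG (Sox factors) and, for Tfcp2l1, a pair of CCAG copies with 6 bases between them. The motifs of Grhl, Sox and the E-box cannot share bases with one another, while that of Tfcp2l1 can share bases with each of them. The windows of Dpp4 and Spint1 held none of the 4 motifs in the form searched. The upstream window of Prom1 held an E-box and a Grhl match, and the downstream window held a Grhl match. A match is a run of letters in a window and was not read as a bound site.

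The E-box was found in at least 1 window of 22 of the 30 genes (73.3%), against 22.3% of the 15191 tested genes with a window. Of all 32851 windows of the same length, counted singly and not by gene, 20.2% held it. The median GC content of the windows was 60.7% for the 42-gene list and 57.7% for all tested genes. The 22 genes came from all 5 groups, with 5 of 6 genes of keratins and adhesion, 8 of 12 of claudins and the tight junction, 1 of 2 proteases and inhibitors, 5 of 7 apical genes and 3 of 3 factors with a window. The 8 without it were Jup, Cldn1, Cldn10, Tjp1, Cgn, Spint1, Dpp4 and Prom2. The median change was 0.17 for the 22 genes with an E-box and 0.14 for the 8 without. Genes with at least 3 E-boxes before the start in a window are printed from 10 bases before the first E-box to the last base before the start, with each E-box in capitals, namely Ap1m2 (chr9:21312334-21312424, minus strand), Crb3 (chr17:57062073-57062230, plus strand), Elf5 (chr2:103411933-103412097, plus strand) and Spint2 (chr7:29281978-29282061, minus strand).
Ap1m2: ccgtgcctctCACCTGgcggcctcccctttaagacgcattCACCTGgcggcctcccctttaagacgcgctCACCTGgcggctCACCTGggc
Crb3: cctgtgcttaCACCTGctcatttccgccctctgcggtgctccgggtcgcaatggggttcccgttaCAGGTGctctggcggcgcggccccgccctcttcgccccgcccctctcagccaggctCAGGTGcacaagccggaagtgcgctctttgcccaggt
Elf5: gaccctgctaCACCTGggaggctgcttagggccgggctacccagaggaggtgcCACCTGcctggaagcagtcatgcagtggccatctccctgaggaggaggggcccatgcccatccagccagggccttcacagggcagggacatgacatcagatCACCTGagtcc
Spint2: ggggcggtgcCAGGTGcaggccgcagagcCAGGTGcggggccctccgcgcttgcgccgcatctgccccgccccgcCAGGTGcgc

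None of these 4 genes passed the threshold in the knockout, with changes of 0.22 for Ap1m2, 0.17 for Crb3, 0.21 for Elf5 and -0.02 for Spint2 (unadjusted limma p of 0.0222, 0.0931, 0.0304 and 0.824). The Grhl motif was found for 3 of 30 genes (10%), Prom1, Cgn and Rab25, against 2.3% of tested genes. It is shown in 30 bases for Cgn (chr3:94786493-94786522, minus strand) and Rab25 (chr3:88548363-88548392, minus strand), with the match in capitals.
Cgn: tcctggggagtAACAGGTTggtgggcgggg
Rab25: agcagacacctAACCTGTTtaacctgtctg

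Of the 3 genes with a Grhl match Prom1 fell, and Cgn and Rab25 had changes of 0.23 and 0.22 that did not pass. The Sox motif, searched only as the string ACAAAG, was found for 4 of 30 genes (13.3%), Cldn1, Cldn4, Cldn10 and Krt18, against 18.8% of tested genes. None of these 4 passed the threshold by limma over all genes (Krt18 was at an unadjusted p of 0.0330). Other forms of a Sox site were not searched. The Tfcp2l1 motif was found in none of the 30, against 4.38% of tested genes. No match says only that the letters are not in these windows.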

How the data were processed

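RNA of 4 Sox11 knockout and 4 wild type caudal urogenital ridges at E10.75 was freed of ribosomal RNA, amplified and biotin-labelled with Affymetrix kits, per the labels' protocols. The deposited table holds log2 signal of 27478 probe sets on 8 arrays, made by the authors with RMA and Partek, per the submitters' processing notes; for versions, settings and the genome build nothing is given in the sources used here. The log2 scale was read off the values, from 4.30 to 14.62 with array medians of 7.29 to 7.31. RMA makes the arrays' distributions alike, which hides any global shift, and low signal understates differences. Arrays correlated at 0.987 to 0.995 across genes, and the median SD within a genotype was 0.11; the number of arrays limits the precision. The Y-linked genes gave signal on wild type replicate 1 and knockout replicates 3 and 4.

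Probe sets with exactly 1 symbol in the platform annotation (21103) were reduced to 19356 genes by the highest mean over the 8 arrays, with no filter on low values; 1 of the 42 genes, Elf5, had a mean under the 25th percentile (6.22) and 15 had one under the median (7.55). A linear model with genotype alone was fitted in limma 3.58.1 under R 4.3.3 (lmFit, then eBayes with no trend; two-sided), and p was adjusted over all genes after Benjamini and Hochberg, with calls under 0.05; intervals are 95% intervals of limma. An exact permutation test of 4 against 4 arrays cannot give a p under 0.0286. The 42 genes, the other lists and the tests were chosen with earlier results of these data known. All 42 genes could be named, with values per array for those past the threshold, those at an unadjusted p under 0.01 and up to 3 more per group with the lowest p; Cdh1, Epcam, Krt8 and Cldn4 were also given per array, a choice made after their values were seen. From other lists the genes past the threshold and the 2 of lowest p could be named. Summed linear signal is the sum of 2 raised to the log2 signal over a list. The steps were tested on simulated data. Promoter windows came from RefSeq (GRCm38.p6), matched by symbol. Figures were drawn with matplotlib 3.10.9.

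Alternatives to these choices were 2 rescalings (median centring and another quantile step), 2 filters on signal (25th percentile, median), averaging or testing all probe sets of a gene, eBayes with trend and robust, no moderation, array weights, a block for the replicate number, a covariate for Y-linked signal, a threshold of 0.1, each array left out in turn and, added later, the epithelial covariate.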

Additional observations from a re-analysis of the deposited data

Results flagged for a closer look

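In 4 of the 84 groups of 4 arrays (42 genes in both genotypes) 1 array lay far from the other 3 of its genotype, by Dixon's test of the gap over the range. By chance about 1 such group in 20 is flagged, so the number found is near the number that chance gives. The groups share the same 8 arrays, so this number does not show that the flags are unrelated. In 3 of the flagged groups the array was wild type replicate 2 and the value was low. For Cdh1 it had a log2 signal of 7.87, against 8.60 to 8.69 on the other wild type arrays. For St14 it had 8.11, against 8.53 to 8.60. For Dpp4 it had 7.20, against 7.39 to 7.42, and Dpp4 passed the threshold without that array too. In the remaining group knockout replicate 2 was high, with 6.36 for Marveld3, against 6.17 to 6.20 on the other knockout arrays.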

How the results depend on the processing

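Dpp4 and Prom1 passed the threshold under all 20 alternatives with limma (highest adjusted p 0.0446 and 0.0246), Cldn8 under all but the fit without moderation (0.0747), and Spint1 was lost under 8 of 20, in the fit without moderation at 0.116. The count of the 42 genes called higher was 3 and became 1 without moderation and 6 at an adjusted p under 0.1. It was 2 with either covariate, 4 with the filter at the median and 2 to 4 without single arrays. The median change over the 42 genes ran from 0.09 to 0.21 when single arrays were left out. All genes called higher numbered 70, and 7 without moderation, 34 with the Y-linked covariate, 26 with the epithelial covariate, which was chosen after seeing the data, and 17 to 55 without single arrays. All genes called lower numbered 209, and 137 with median centring, 48 without moderation, 117 with the Y-linked covariate, 122 with the epithelial covariate and 88 to 192 without single arrays. The share of higher genes among calls was 25.1%, and 37.4% with median centring, 33.7% with a further quantile normalization and 12.7% without moderation. Of the 3 related lists 1 gene was called higher, and 3 with median centring, 2 with quantile normalization, 2 with the filter at the 25th percentile, 0 without moderation or with either covariate, and 0 to 1 without single arrays; 2 were called lower, and 0 without moderation and 0 to 2 without single arrays. Whether the replicate numbers pair the arrays is not given in the sample titles. The deviations of same-numbered arrays correlated at -0.17, 0.09, -0.04 and 0.06, which does not settle it. With the replicate number as a block 117 genes were called lower and 49 higher. Of the 42 genes 4 were then called higher, Calb1 among them (limma adjusted p = 0.044), and 1 lower, and of the related lists 0 higher and 1 lower. Signs turned only for genes far from the threshold, with array weights for Cldn1 (-0.035) and Cldn10 (-0.0089), with the epithelial covariate for Cldn6 (-0.030), with median centring for Esrp2 (0.025), F11r (0.0016) and Spint2 (0.014), and with quantile normalization for F11r (0.0099) and Spint2 (0.036). Without single arrays the change ran from -0.033 to 0.24 for Cdh1, -0.058 to 0.10 for Cldn1, -0.069 to 0.12 for Cldn10, -0.059 to 0.18 for Cldn6, -0.027 to 0.13 for Epcam, -0.056 to 0.10 for Esrp1, -0.082 to 0.081 for Esrp2, -0.078 to 0.044 for F11r, -0.0019 to 0.14 for Grhl2, -0.011 to 0.15 for Krt7 and -0.091 to 0.018 for Spint2. The causes were not tested.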
